A study of Mus musculus with 6 samples.

Results

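The Kv4 potassium channel complex was followed through 8 genes, taken by symbol: the pore genes Kcnd2 and Kcnd3, the 4 KChIP genes Kcnip1, Kcnip2, Kcnip3 and Kcnip4, and the dipeptidyl peptidase-like genes Dpp6 and Dpp10. All 8 were present in each table, among 19006 mouse genes in the SCRB-seq wells, 21987 in the SMART-Seq2 wells, 21608 in the tables of single nuclei on plates and 19905 in the droplet nuclei. The rule that picks the 8 uses no measured value.

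Kv4 channels are voltage-gated potassium channels that open below the spike threshold, inactivate within milliseconds and carry much of the A-type current of neuronal cell bodies and dendrites. The Kcnd genes encode the pore. The KChIPs are cytoplasmic calcium-binding proteins of the neuronal calcium sensor family that bind the amino terminus of the pore, bring it to the surface and slow its inactivation, while Dpp6 and Dpp10 are membrane proteins without peptidase activity that speed its gating. Kcnd2 is the textbook Kv4 pore of pyramidal cell dendrites and of cerebellar granule cells, and Kcnd3 is better known from interneurons and Purkinje cells.

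The study isolated nuclei from formalin-fixed, paraffin-embedded (FFPE) brain of wild-type C57BL/6J mice aged 8 to 12 weeks, cut as 50 µm scrolls and described in the labels as cortex, with no genetic change or drug in any group. Paraffin was removed with heated mineral oil, with heated xylene or with xylene at room temperature, and nuclei from frozen tissue served as the unfixed reference. Small pools of nuclei were sorted into wells and sequenced by SCRB-seq, a 3′ counting method with barcoded wells, or by SMART-Seq2, a full-length method. Single nuclei were sequenced by SMART-Seq2 on plates or in droplets.

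SCRB-seq covered 64 wells, 16 for each of the 3 deparaffinization methods and 16 frozen, with 8 wells of 10 nuclei and 8 wells of 100 nuclei in each set. The 8 wells of 1 method and 1 nuclei number shared 1 library pool, so pool and nuclei number cannot be told apart. No pool spanned methods or materials, so SCRB-seq differences between methods, or from frozen wells, cannot be told apart from pool either. SMART-Seq2 covered 12 wells, with single wells of 10, 50 and 100 nuclei for each method and for the frozen tissue. Plate nuclei came as FFPE batch 1 (98 nuclei), FFPE batch 2 (134 nuclei) and a whole-series table of 143 FFPE and 137 frozen nuclei, of which 134 FFPE nuclei carried the same values as batch 2. The table of FFPE batch 3 held 0 nuclei. The annotation gives the left hemisphere for FFPE plate nuclei and the right for frozen ones. The droplet table held 7031 nuclei in 12 classes named by the authors. Nothing in the labels says how many animals were used or that wells came from separate animals, so p-values measure only the spread between wells, which may be technical.

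Depth ranged from 7512 to 167144 counts per SCRB-seq well and from 270363 to 942966 per SMART-Seq2 well; the shallowest SCRB-seq wells were the mineral oil wells of 10 nuclei, at 7512 to 20593. The median plate nucleus had 180584 counts in batch 1, 42747 in batch 2 and 255329 in frozen tissue, and the median droplet nucleus had 325 UMIs. Cell composition did not match between FFPE and frozen material. The summed level of cerebellar granule cell markers was 374 to 6922 CPM (counts scaled to a library total of 1000000) in FFPE SCRB-seq wells and 0 to 189 in frozen ones, where Gabra6 and Cbln3 were at 0. In SMART-Seq2 wells it was 2368 to 7276 CPM against 122 to 226, with Gabra6, Cbln1, Cbln3 and Zic1 at 0 in every frozen well. All 8 granule markers present in the tables, of 9 listed, were called higher in FFPE wells by both assays. The cortical excitatory list ran the other way, at 125 to 634 CPM in FFPE SMART-Seq2 wells against 1306 to 2281 in frozen ones. In SCRB-seq its ranges overlapped, at 146 to 1174 CPM in FFPE and 595 to 1647 in frozen wells. The frozen wells carried striatal markers as well, at 1816 to 2374 CPM in SMART-Seq2 against 706 to 2103 in FFPE wells. Markers thus did not simply bear out the label cortex in either material, and the FFPE wells also carried cerebellar markers.

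Most members are very long genes with little exon sequence, on GRCm38 with GENCODE M21 models. Kcnip4 (ENSMUSG00000029088) lies on the minus strand of chromosome 5 from 48389502 to 49524907, a span of 1135 kb of which exons make up 0.319%. Dpp6 (ENSMUSG00000061576) lies on the same chromosome, plus strand, from 26817203 to 27727505. Dpp10 (ENSMUSG00000036815) is on the minus strand of chromosome 1 from 123321471 to 124045559, and Kcnd2 (ENSMUSG00000060882) on the plus strand of chromosome 6 from 21215503 to 21729805. Kcnip1 (ENSMUSG00000053519) occupies 33629339 to 33993152 on the minus strand of chromosome 11, and Kcnd3 (ENSMUSG00000040896) 105452330 to 105674002 on the plus strand of chromosome 3. The short members were Kcnip3 (ENSMUSG00000079056; chromosome 2, 127456498 to 127522094, minus strand) and Kcnip2 (ENSMUSG00000025221; chromosome 19, 45791839 to 45816061, minus strand), which spans 24.2 kb. Exon sequence of the 8 genes ran from 3.48 kb in Kcnip2 to 15.8 kb in Dpp10. No source used here says whether intronic reads were counted.

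Kcnip4 was among the most abundant of all RNAs in these nuclei. It ranked 2nd of 19905 genes in the droplets with 1.01% of all UMIs, where Kcnd2 ranked 5th with 0.584%. In the FFPE SMART-Seq2 wells Kcnip4 again ranked 2nd, Kcnd2 4th and Dpp6 11th. In the frozen SMART-Seq2 wells the same genes ranked 4th, 78th and 282nd. Per kb of exon, Kcnip4 had the highest level of the 8 in all 8 sets of libraries compared, from 549 CPM per kb in frozen plate nuclei to 3027 in FFPE SMART-Seq2 wells. Kcnd2 came next and Dpp6 after it in every FFPE set and in the droplets. Kcnip2, a KChIP best known from heart, was the lowest per kb in those sets, at 8.94 to 10.1 CPM per kb. The exception was FFPE batch 2 of the plate nuclei, where Dpp10 was lower (17.4 against 29.9). Counts of 3′ ends or UMIs need not grow with exon length. By pooled CPM alone, Kcnip4, Kcnd2 and Dpp6 led in that order in FFPE SCRB-seq wells (4179, 3037 and 2108). The droplets had the same order (10081, 5836 and 1671).

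In FFPE against frozen wells, Kcnd2 and Dpp6 rose in both assays, Kcnip1 rose and Kcnip3 fell by the SCRB-seq test, and Kcnd3, Kcnip4 and Dpp10 did not pass in either. Kcnip2 did not pass in SMART-Seq2 and was too low to be tested in SCRB-seq. Whether the assays differ was not tested. SCRB-seq called 4 of the 7 members tested, 3 higher and 1 lower. Of all 1478 genes tested there, 58% were called, 30.2% higher and 27.7% lower, so a call alone sets no member apart. The median log2 fold change was -0.26 over the 7 members and 0.00 over all genes. SMART-Seq2 called 2 of 8 members, both higher, where 4.09% of 9092 genes were called, 1.45% higher and 2.64% lower. The scaling chosen mattered in SCRB-seq. With DESeq2 size factors the median of all genes moved to -0.58, the split of all calls went from 447 higher and 410 lower to 309 and 674, and all 7 members were called, 3 higher and 4 lower.

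Kcnd2, the principal Kv4 pore, had 648, 2774 and 7862 CPM as lowest, median and highest value in the 48 FFPE SCRB-seq wells and 379, 1035 and 1423 in the 16 frozen wells. The ranges overlapped, and 38 of the 48 FFPE wells lay above the highest frozen well. Its log2 fold change was 1.46 (SE 0.22, adjusted p = 2.88e-08, edgeR quasi-likelihood test, Benjamini-Hochberg), a 2.74-fold rise. Among wells of 100 nuclei the groups did not overlap, at 2490 to 5539 CPM in 24 FFPE wells against 858 to 1346 in 8 frozen ones, a separation shown by 5.62% of the genes tested, with 4.13% separated downward. Over wells of both sizes no member separated the materials, and 1.29% of genes did upward and 1.69% downward. In SMART-Seq2, Kcnd2 was at 8020, 7352 and 9446 CPM in the mineral oil wells of 10, 50 and 100 nuclei. The heated xylene wells had 4254, 7776 and 6620 CPM, the room-temperature xylene wells 6287, 6710 and 7790, and the frozen wells 1360, 976 and 1239. Every FFPE well stood above every frozen well, which held for 3.72% of genes (4.96% for the reverse), and the log2 fold change was 2.30 (SE 0.24, adjusted p = 1.53e-06), a 4.94-fold rise.

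**Figure D1:**
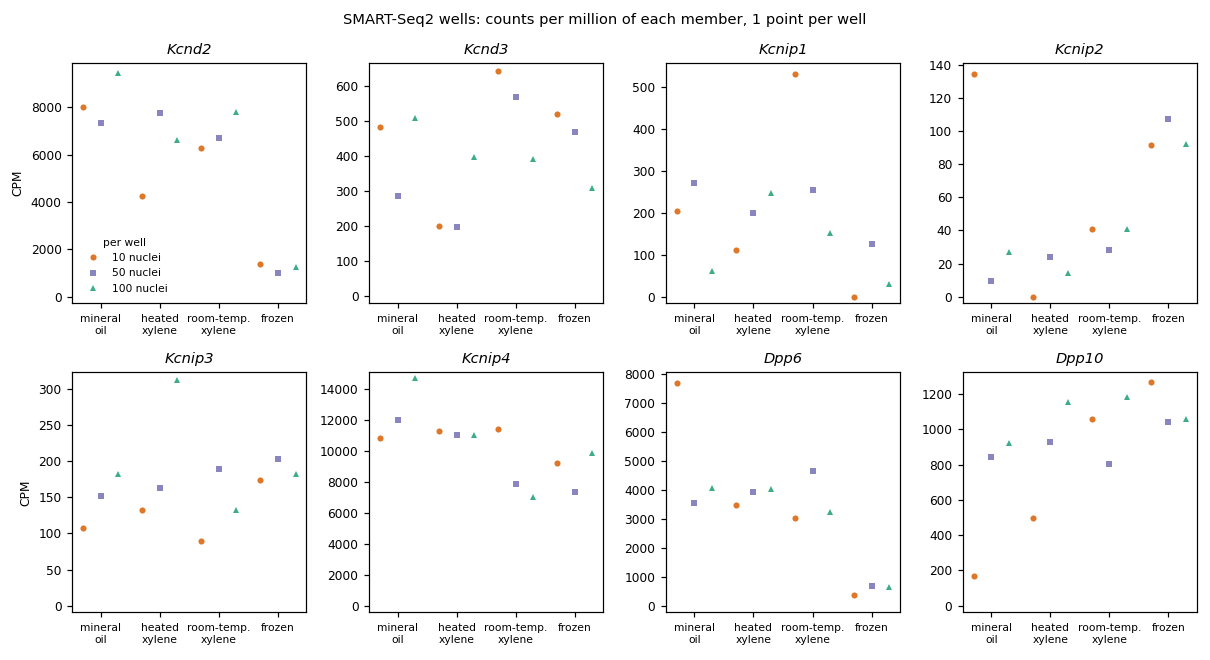
CPM of each of the 8 members (vertical axes, linear, starting near 0) in the 12 SMART-Seq2 wells by deparaffinization method and for frozen tissue (horizontal axes); each point is 1 well and its shape and colour give the number of nuclei. Kcnd2 lies at 4254 CPM or more in all 9 FFPE wells and at 1360 or less in the 3 frozen wells, and Dpp6 at 3039 or more against 662 or less, while Kcnip4 overlaps.

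Kcnd3, the other pore gene, did not follow Kcnd2. Its FFPE SCRB-seq wells had 0, 55.6 and 904 CPM as lowest, median and highest value and the frozen wells 53.2, 216 and 511, with a log2 fold change of -0.80 (SE 0.40) that missed the threshold (adjusted p = 0.0783; 0.00304 to 0.242 over 6 other settings, 3 of which called it lower). In SMART-Seq2 it was at 199 to 644 CPM in FFPE and 309 to 520 in frozen wells, with a log2 fold change of -0.38 (adjusted p = 0.776). The balance of the pores therefore differed between the materials. Summed over wells and set per kb of exon, Kcnd2 exceeded Kcnd3 33.5-fold in FFPE and 5.21-fold in frozen SMART-Seq2 wells. In SCRB-seq, a 3′ counting method, the ratio of summed counts was 18.2 in FFPE and 4.44 in frozen wells, without scaling by exon length. The log2 ratio of Kcnd2 to Kcnd3 counts was 3.29 to 5.28 in the 9 FFPE SMART-Seq2 wells and 1.05 to 2.00 in the 3 frozen wells, without overlap. In SCRB-seq the ranges overlapped, at 1.77 to 7.77 in FFPE and 0.36 to 4.01 in frozen wells. No p-value was computed for these ratios, and how often other gene pairs separate was not tested.

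Dpp6 had the larger rise of the peptidase-like pair. It was at 60.9, 1944 and 4375 CPM as lowest, median and highest value in FFPE SCRB-seq wells and at 106, 334 and 585 in frozen wells, a log2 fold change of 2.37 (SE 0.31, adjusted p = 3.88e-10). In 42 of the 48 FFPE wells it exceeded the highest frozen well, and the lowest FFPE values came from mineral oil wells of 10 nuclei. Among wells of 100 nuclei it did not overlap, at 815 to 3413 CPM against 119 to 585. In SMART-Seq2 the mineral oil wells of 10, 50 and 100 nuclei had 7687, 3541 and 4049 CPM, the heated xylene wells 3483, 3919 and 4041, the room-temperature xylene wells 3039, 4646 and 3247, and the frozen wells 353, 662 and 649. The log2 fold change there was 2.67 (SE 0.33, adjusted p = 9.94e-06), again with every FFPE well above every frozen one.

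Dpp10 moved the other way without passing the test, with log2 fold changes of -0.43 (adjusted p = 0.168) in SCRB-seq and -0.73 (adjusted p = 0.383) in SMART-Seq2. Its frozen SMART-Seq2 wells had 1269, 1039 and 1056 CPM, and its FFPE wells ranged from 166 in the mineral oil well of 10 nuclei to 1182. Per kb of exon, Dpp6 was 6.38-fold above Dpp10 in FFPE SMART-Seq2 wells and 1.87-fold below it in frozen ones. In SCRB-seq the ratio of summed Dpp6 to Dpp10 counts, not scaled by exon length, was 3.48 in FFPE and 0.516 in frozen wells. Summed over wells, the order of the pair was thus opposite in FFPE and frozen wells of both assays. Frozen plate nuclei did not show this reversal, with Dpp6 3.52-fold above Dpp10 per kb of exon. The log2 count ratio of Dpp6 to Dpp10 did not overlap in SMART-Seq2 wells, at 1.46 to 5.53 against -1.84 to -0.65. In single SCRB-seq wells it overlapped, at -3.46 to 5.43 in FFPE and -3.40 to 0.53 in frozen wells. How often the ratios of other gene pairs separate was not tested.

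Of the KChIPs, Kcnip4, the most abundant, differed little between FFPE and frozen wells. It had 939, 4154 and 9096 CPM as lowest, median and highest value in FFPE SCRB-seq wells and 2975, 4775 and 5775 in frozen wells (log2 fold change -0.26, SE 0.17, adjusted p = 0.176; called lower at -0.84, adjusted p = 3.41e-05, with DESeq2 size factors, where the median gene stood at -0.58). In SMART-Seq2 it was at 7012 to 14689 CPM in FFPE wells and at 9224, 7335 and 9840 in frozen wells (log2 fold change 0.02, SE 0.19, adjusted p = 0.98). The frozen wells lay inside the FFPE range, with 7 of 9 FFPE wells above all of them and 1 below.

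Kcnip1, a KChIP known from interneurons, was at 0, 345 and 724 CPM as lowest, median and highest value in FFPE SCRB-seq wells and at 0, 55.0 and 325 in frozen wells. The log2 fold change was 2.11 (SE 0.32, adjusted p = 3.08e-08). In SMART-Seq2 the estimate was 1.96 (SE 0.93) and did not pass (adjusted p = 0.33; 0.145 to 0.785 over 16 other settings), and it moved between 1.38 and 3.67 as single wells were left out, the highest value without the frozen well of 50 nuclei. The FFPE wells there held 60.6 to 530 CPM, and the frozen wells of 10, 50 and 100 nuclei held 0, 126 and 30.0.

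Kcnip3, also known as the calcium-binding repressor DREAM, fell in SCRB-seq with a log2 fold change of -1.35 (SE 0.43, adjusted p = 0.00505). The FFPE wells had 0, 39.6 and 897 CPM as lowest, median and highest value and the frozen wells 117, 199 and 719. The call did not hold in wells of 100 nuclei alone (-0.57, adjusted p = 0.37), and in SMART-Seq2 the ranges overlapped at 89.3 to 313 CPM against 174 to 203. Kcnip2 did not pass the filter on low counts in SCRB-seq, with 104 counts over 48 FFPE wells and 145 over 16 frozen wells. Both alternatives that tested it called it lower, at -2.16 without the filter (adjusted p = 3.81e-05) and -2.46 in wells of 100 nuclei (adjusted p = 2.97e-06). In SMART-Seq2 it had 0 to 135 CPM in FFPE wells and 92.0, 107 and 92.1 in frozen wells (log2 fold change -1.92, SE 0.98, adjusted p = 0.379), and 8 of 9 FFPE wells lay below the frozen ones, the mineral oil well of 10 nuclei above them.

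**Figure D2:**
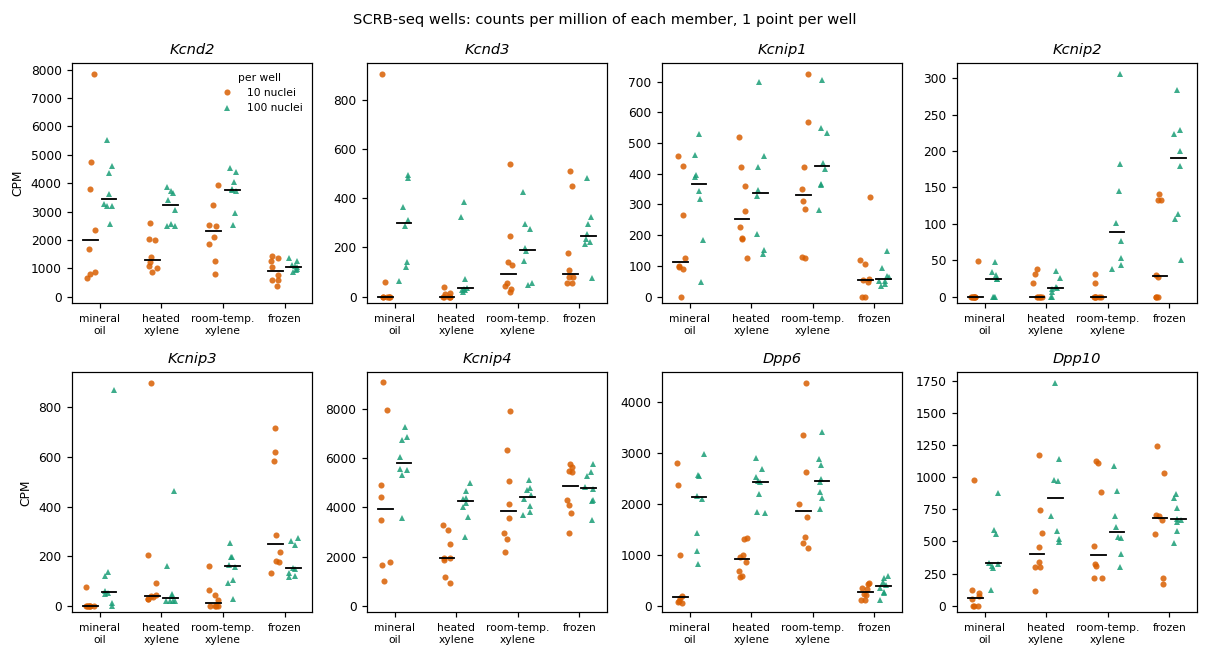
CPM of each of the 8 members (vertical axes, linear) in the 64 SCRB-seq wells by method and for frozen tissue (horizontal axes); circles are wells of 10 nuclei, triangles wells of 100, and bars mark medians of 8 wells. Kcnd2 and Dpp6 sit higher in FFPE wells of 100 nuclei (2490 to 5539 and 815 to 3413 CPM) than in frozen ones, and most members spread more and reach lower in mineral oil and heated xylene wells of 10 nuclei.

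Other cell markers moved with these differences. Besides the granule list, St18 of oligodendrocytes was called higher in FFPE wells by both assays, and Gad1, Erbb4 and Slc1a3 in SCRB-seq. Rorb of cortical neurons was called lower in SCRB-seq. In the frozen SCRB-seq wells the striatal list summed to 611 to 2669 CPM against 0 to 1205 in FFPE wells. The part of cell composition in the member differences was not tested, and in pooled wells fewer cells of a type and less RNA per cell cannot be told apart. Tissue treatment and the part of the brain sampled cannot be told apart here.

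Genes that work beside Kv4 channels were taken from lists of 30 genes. Among those tested in SCRB-seq, the kinase Camk2a (-3.30), the T-type calcium channel Cacna1i (-2.21) and the scaffold Dlg1 (-0.86) fell, and the calcium sensors Ncald (-0.32) and Vsnl1 (0.03) did not pass. In SMART-Seq2 Camk2a fell as well (-3.08), and so did Kcna4, the pore of another A-type channel. None of the 7 auxiliary and trafficking partners, 3 T-type channels, 6 calcium sensors or 3 peptidase relatives tested there passed. Kcnd1, the remaining Kv4 pore gene, was not tested in either assay because of low counts.

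Between deparaffinization methods few members passed the test, and which ones did depended on the fit. SCRB-seq tested 6 of the 8 and called 1, Dpp10, which was lower after mineral oil than after heated xylene (log2 fold change -1.18, SE 0.37, adjusted p = 0.0356; 6.94% of 1080 genes were called lower and 8.52% in either direction). Its wells had 0, 209 and 975 CPM as lowest, median and highest value after mineral oil and 113, 570 and 1731 after heated xylene, with wide overlap. The call was lost with DESeq2 size factors (adjusted p = 0.0557) and in wells of 10 nuclei (adjusted p = 0.0752), 2 of 6 other settings. In the same edgeR fit over all wells, with the low-count filter and no block, no member was called between heated and room-temperature xylene, where 1.94% of genes were, or between mineral oil and room-temperature xylene, where 10.3% were, although 2 and 3 members had an unadjusted p under 0.05. DESeq2's Wald test called 0 and 1. Without the filter edgeR called 1 member in each of these pairs, and between mineral oil and room-temperature xylene it called 2 in wells of 10 nuclei and 1 in wells of 100. With the nuclei number as a block in edgeR, each pair of methods had calls. Kcnd3 was lower after heated than after room-temperature xylene (-1.90, adjusted p = 0.0348; 5.74% of genes were called). Dpp10 (-1.16, adjusted p = 0.0210) and Dpp6 (-1.07, adjusted p = 0.0130) were lower after mineral oil than after room-temperature xylene, where 18.6% were called. Between mineral oil and heated xylene 3 members were called, Kcnd3 (1.74) and Kcnip4 (0.64) higher after mineral oil and Dpp10 lower, where 13.2% were. In SMART-Seq2 edgeR called 0 of 8 members and 0 of 8372 genes in any of the 3 pairs of methods, with 1 member, Kcnip4, at an unadjusted p under 0.05 in each pair with room-temperature xylene and none in the other; DESeq2's Wald test called 0 members as well.

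Members were called lower in wells of 10 than of 100 nuclei within heated xylene and within mineral oil. After heated xylene, wells of 10 nuclei had lower Kcnip4 (-0.97), Kcnd3 (-3.36), Kcnd2 (-1.05) and Dpp6 (-1.35) than wells of 100, 4 of 7 members tested and all lower, where 17.8% of 2511 genes were called lower and 25.9% in either direction. The median over members was -0.97 and over all genes -0.17. Kcnd3 was at 0 in 5 of the 8 heated xylene wells of 10 nuclei and detected in all 8 of 100. Kcnip4 went from 1934 CPM (median) in wells of 10 nuclei to 4260 in wells of 100. Dpp6 went from 909 to 2440 in the same wells, and its ranges of 560 to 1338 and 1824 to 2912 did not overlap, a separation in this direction shown by 3.74% of the 2511 genes.

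After mineral oil all 7 members tested were called lower in wells of 10 nuclei, from -0.79 for Kcnd2 to -3.99 for Kcnip3, which was at 0 in 7 of 8 such wells. Kcnd3 kept its call (adjusted p = 0.0397) in 1 of 3 other settings. There 48.9% of all genes were called lower, 55.3% in either direction, and the median gene stood at -1.71, against -1.61 for the members, in wells of 7512 to 20593 counts. Relative to that shift Kcnd2 and Kcnip4 (-0.88) fell less than the median gene. After room-temperature xylene and in frozen tissue edgeR called 0 of 7 members, with 1 and 0 at an unadjusted p under 0.05; DESeq2's Wald test called 2 and 0, and 15.4% and 0.0398% of all genes were called. Kcnip4 and Kcnd3 differed between heated and room-temperature xylene in this response itself (differences of -1.19, adjusted p = 0.0126, and -3.23, adjusted p = 0.0245; 17.3% of genes were called in that test). The Kcnip4 call was lost without the filter (adjusted p = 0.0513), 1 of 3 other settings. Against frozen wells the response after heated xylene differed for 0 of 7 members by edgeR (2 at an unadjusted p under 0.05; Kcnd3 adjusted p = 0.0976, Kcnip4 adjusted p = 0.178), for 2 with DESeq2 size factors and for 3 by DESeq2's Wald test, where edgeR called 11.9% of genes. The response after mineral oil differed from heated xylene and from frozen wells for 1 member each, Kcnip3, where 36.2% and 37.9% of genes were called, and from room-temperature xylene for Kcnip4, Dpp6 and Dpp10, where 39.2% were; these last 3 calls were lost with DESeq2 size factors and with its Wald test. Depth, library pool and nuclei number moved together here and their parts were not tested.

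**Figure D3:**
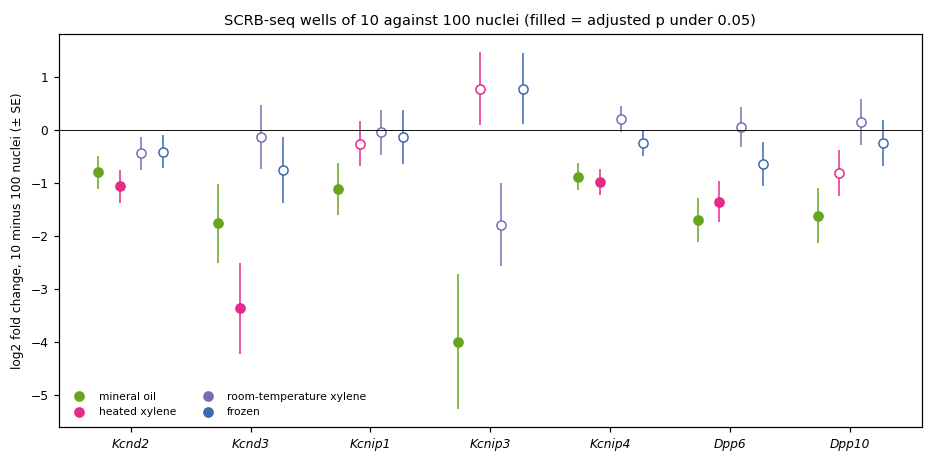
Log2 fold change of wells of 10 over wells of 100 nuclei (vertical axis, ± SE) for the 7 members tested (horizontal axis), by material; filled circles passed an adjusted p under 0.05. All 7 mineral oil values are below 0 and filled, 4 of 7 heated xylene values are, and no room-temperature xylene or frozen value is.

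Among single nuclei on plates, where each group is 1 sample and no test across nuclei was made, Kcnip4, Kcnd2 and Dpp6 were the 3 highest members per kb of exon in both FFPE batches, as in FFPE wells of both assays. In frozen nuclei the order differed from that of frozen wells. Kcnd2 stood below Kcnip4, Kcnip3 and Dpp6 per kb on the frozen plates, at 317 CPM, but next after Kcnip4 in frozen wells, at 1058 CPM in SCRB-seq and 1262 in SMART-Seq2. Kcnip1, lowest per kb in frozen wells of both assays (71.3 and 29.5 CPM), stood above Kcnd3, Kcnip2 and Dpp10 per kb on the frozen plates, at 350 CPM. Intervals below are exact 95% Poisson or binomial intervals and cover counting error only, since reads of amplified nuclei are not independent molecules. Pooled Kcnd2 was 4321 CPM (4290 to 4352) in FFPE batch 1, 1772 (1746 to 1798) in FFPE batch 2 and 317 (312 to 321) in frozen nuclei. This was 13.6-fold and 5.60-fold above frozen, where 24.2% and 29.9% of genes stood at least 2-fold higher and 40.4% and 30.9% at least 2-fold lower. Dpp6 was at 4043, 2097 and 833 CPM in the same order, 4.86-fold and 2.52-fold above frozen. Kcnip4 was at 6779, 3606 and 1992 CPM, 3.40-fold and 1.81-fold above. By pooled CPM, Kcnd2, Dpp6 and Kcnip4 were each above frozen in both batches, which share the frozen nuclei as reference. The median nucleus was above frozen in both batches for Kcnd2 and Dpp6. For Kcnip4 it was at 579, 1949 and 884 CPM in batch 1, batch 2 and frozen nuclei, below frozen in batch 1.

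By pooled CPM, Kcnip1, Kcnip2 and Kcnip3 were below frozen in both batches. As a mean of single nuclei over the 143 FFPE nuclei of the whole-series table, Kcnip1 and Kcnip3 were above frozen. Pooled Kcnip1 was at 89.9, 249 and 350 CPM in batch 1, batch 2 and frozen nuclei, 3.89-fold and 1.41-fold lower, opposite in direction to the SCRB-seq wells. Its median nucleus was at 14.9, 256 and 47.5 CPM, above frozen in batch 2. Kcnip2 was at 31.1, 104 and 127 CPM, 4.08-fold and 1.22-fold lower. Kcnd3 was at 620, 329 and 420 CPM in batch 1, batch 2 and frozen nuclei. Kcnd2 per kb of exon thus exceeded Kcnd3 13.0-fold, 10.0-fold and 1.40-fold. The frozen plates differed, with a ratio of Kcnd2 to Kcnd3 counts, not scaled by length, of 0.470 on plate 1 and 1.11 on plate 2. On single FFPE plates the same ratio was 3.64 to 13.2. Dpp10 was at 772, 275 and 302 CPM and Kcnip3 at 244, 192 and 278, 1.14-fold and 1.45-fold lower. In the whole-series table Kcnd2 reached 5061 CPM in FFPE nuclei, but 1 nucleus supplied 69.2% of those counts and was among the 9 absent from batch 2; over the 134 shared nuclei the level was 1772. There 26.6% of genes stood at least 2-fold above frozen and 33.2% at least 2-fold below. Dpp10 likewise changed from 2.58-fold above frozen in all 143 FFPE nuclei to 1.10-fold below it without those 9.

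Plates within a batch differed. Kcnip3 was at 1037 CPM on plate MB17 and 101 on plate MB18 of batch 1, and 1 nucleus held 55.7% of its batch 1 counts. Kcnd2 was at 2337 and 4681 CPM on those plates, at 1308 and 2200 on MB14 and MB16 of batch 2, and at 225 and 404 on the frozen plates. Between the batches, 6 of 8 members were higher in batch 1 by pooled CPM, of which Dpp10 (2.81-fold) and Kcnd2 (2.44-fold) passed 2-fold, where 25.9% of genes were at least 2-fold higher and 40.9% at least 2-fold lower. Kcnip1 and Kcnip2 were 2.77-fold and 3.33-fold lower. The count was 5 by the mean of single nuclei and after thinning, since Kcnip3 turned. It was at 244 against 192 CPM pooled, with 55.7% of its batch 1 counts in 1 nucleus, but at 172 against 496 as a mean and 151 against 502 after thinning. Dpp6 was at 3314 against 2978 CPM as a mean. On plate MB17 pooled Dpp10 and Dpp6 were at 198 and 1243 CPM, below batch 2, so their higher pooled levels in batch 1 rested on plate MB18.

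**Figure D4:**
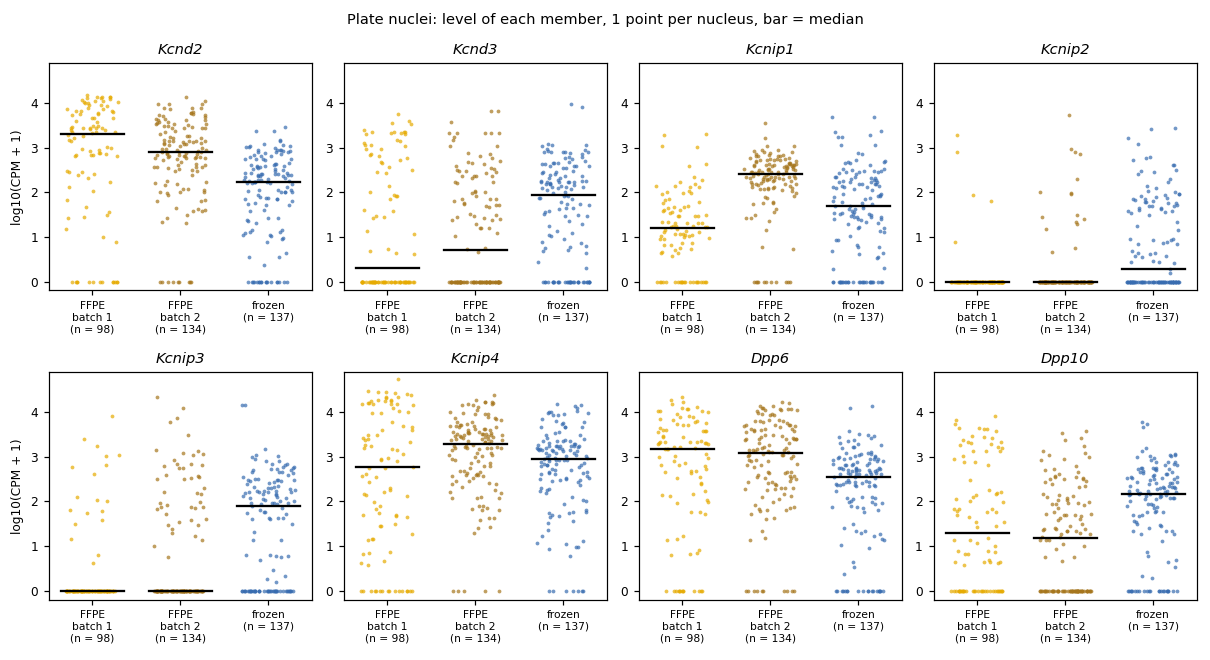
Level of each of the 8 members per nucleus as log10(CPM + 1) (vertical axes) in FFPE batch 1 (98 nuclei), FFPE batch 2 (134) and frozen nuclei (137); each point is 1 nucleus, values at 0 have no count, and bars mark medians. Kcnip1 forms a narrow band in batch 2, with a median of 256 CPM and quartiles of 124 and 430, while Kcnip2 and Kcnip3 are at 0 in most FFPE nuclei.

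Kcnip1 was counted in more FFPE nuclei than any other gene of like pooled level. It was counted in 91.8% of batch 2 nuclei (85.8% to 95.8%), while the 554 other genes with a pooled CPM within 0.8 to 1.25 times its own were counted in 31.3% of nuclei at the median and none in more. In batch 1 it was counted in 77.6% against a median of 18.4%, and 0 of 977 other genes were higher. In frozen nuclei it was ordinary, at 80.3% against 72.3%, with 65 of 377 other genes higher. The median was 14 counts per nucleus in batch 2 and 2 in batch 1, against 6 in frozen nuclei of greater depth. Thinned to 10000 counts per nucleus, the shares were 81.0% in batch 2 (126 nuclei), 31.1% in batch 1 (90 nuclei) and 46.5% in frozen nuclei (127 nuclei). This comparison was made after the values were seen, and the source of the even spread was not tested.

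At least 1 gene of each part of the channel was counted in most nuclei. Kcnip4, Kcnd2 and Dpp6 were each counted in 83.7% to 96.3% of nuclei in FFPE batch 1, FFPE batch 2 and frozen tissue. Such levels alone can give high joint shares, and no expected share was computed. At least 1 pore, 1 KChIP and 1 peptidase-like gene were present in 88.8% of batch 1, 90.3% of batch 2 and 89.1% of frozen nuclei, and in 65.6%, 80.2% and 61.4% after thinning. No nucleus lacked all 8 genes before thinning. Both pores were counted in 42.9%, 50% and 71.5%, and in 32.2%, 30.2% and 38.6% after thinning. Per kb of exon, Kcnip4 was the leading KChIP in 69.8%, 81.2% and 75.0% of nuclei with a KChIP count, and Kcnip1 in 21.9%, 12.0% and 13.2%. By this measure Kcnip4 was the leading KChIP of most nuclei in FFPE and frozen material alike. Whether intronic reads were counted is unknown, so exon length may not be the right scale.

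Nuclei with a count of Gabra6, the GABA-A subunit that marks cerebellar granule cells, numbered 32 of 98 in batch 1, 49 of 134 in batch 2 and 1 of 137 in frozen tissue. In batch 1 those with Gabra6 had 14994 CPM of Kcnip4 against 1539 without, 6774 against 2757 of Kcnd2, and 5251 against 3273 of Dpp6. Kcnip1 ran the other way, at 17.4 against 136 CPM. A single nucleus held 41.0% of the batch 1 Kcnip1 counts. In batch 2 the levels with and without Gabra6 were 3806 and 3411 CPM for Kcnip4, 2329 and 1232 for Kcnd2, 2109 and 2085 for Dpp6 and 254 and 244 for Kcnip1. Dpp10 had 308 CPM with and 1068 without Gabra6 in batch 1 but 380 and 172 in batch 2. Median depth also differed, at 224451 counts with and 165138 without Gabra6 in batch 1 and 61827 against 40870 in batch 2. FFPE nuclei without a Gabra6 count still had Kcnd2 at 2757 and 1232 CPM, against 317 in frozen nuclei. A zero for Gabra6 does not exclude a granule cell at this depth.

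In the droplets Kcnd2, Kcnip4 and Dpp6 were highest in 1 class, ExNeuron3, which also had the highest summed level of the cerebellar granule list (3692 CPM). Levels are pooled CPM over the nuclei of a class of the authors, for 11 classes of at least 50 nuclei. Kcnip4 was at 15579 CPM in ExNeuron3 (15190 to 15976), 12042 in ExNeuron2, 10882 in ExNeuron5 and 10272 in ExNeuron1, and lowest in astrocytes at 5468. Kcnd2 was at 9996 CPM in ExNeuron3, 7692 in ExNeuron2 and 5632 in ExNeuron5, and lowest in astrocytes at 3080. Dpp6 was at 2658 CPM in ExNeuron3 and 2400 in ExNeuron6, whose intervals of 2499 to 2825 and 2075 to 2761 overlapped, and lowest in astrocytes at 935. A neuron class led and astrocytes came last for each of the 3 genes.

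Kcnip4 UMIs were also found in non-neuronal classes. A Kcnip4 UMI was present in 71.0% of microglia (median 285 UMIs per nucleus) and 77.0% of endothelial nuclei (median 301.5), cell types not known for Kv4 channels, against 93.7% of ExNeuron3 nuclei (median 321). Thinned to 250 UMIs the shares were 69.4%, 71.1% and 91.7%. Kcnip4 levels of astrocytes, OPCs and oligodendrocytes lay at or below the 6212 CPM of microglia and are not read as expression, and that of ExNeuron6 (6436 CPM) lay below the 7668 of endothelial nuclei. Kcnd2 was at 4199 CPM in microglia, with a UMI in 60.2% of them, and at 4576 in endothelial nuclei, above the 4427 of ExNeuron4, and OPCs, at 4951, lay above all 3. Dpp6 was at 1331 CPM in microglia and 1484 in endothelial nuclei, both above the 1266 of ExNeuron1, and OPCs were at 1672. The part of free RNA was not tested.

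Kcnip1 was the member with the most class-bound pattern, at 360 CPM in ExNeuron4 (296 to 435) and 308 in ExNeuron6 (199 to 454) and at 37.5 to 102 in the other 9 classes. ExNeuron4, named as excitatory by the authors, also had the highest summed level of the inhibitory marker list (3254 CPM, 575 UMIs of it Erbb4). The intervals of ExNeuron4 and ExNeuron6 overlapped each other. The microglia interval, 21.1 to 299 CPM from 3 UMIs, reached into those of both. Dpp10 was highest in ExNeuron6 at 1120 CPM (902 to 1375) and next in ExNeuron1 at 938 (873 to 1006), which overlapped, and lowest in astrocytes at 436. Kcnd3 and Kcnip3 were highest in OPCs, at 274 (170 to 419) and 209 CPM (119 to 339), with intervals that overlapped most other classes. Kcnip2 had 81 UMIs in all, and its classes could not be ordered at this depth; 0 of 93 microglia had a UMI, which allows a share of nuclei with a UMI of up to 3.23% (3 counts) and sets no limit on nuclei expressing the gene.

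**Figure D5:**
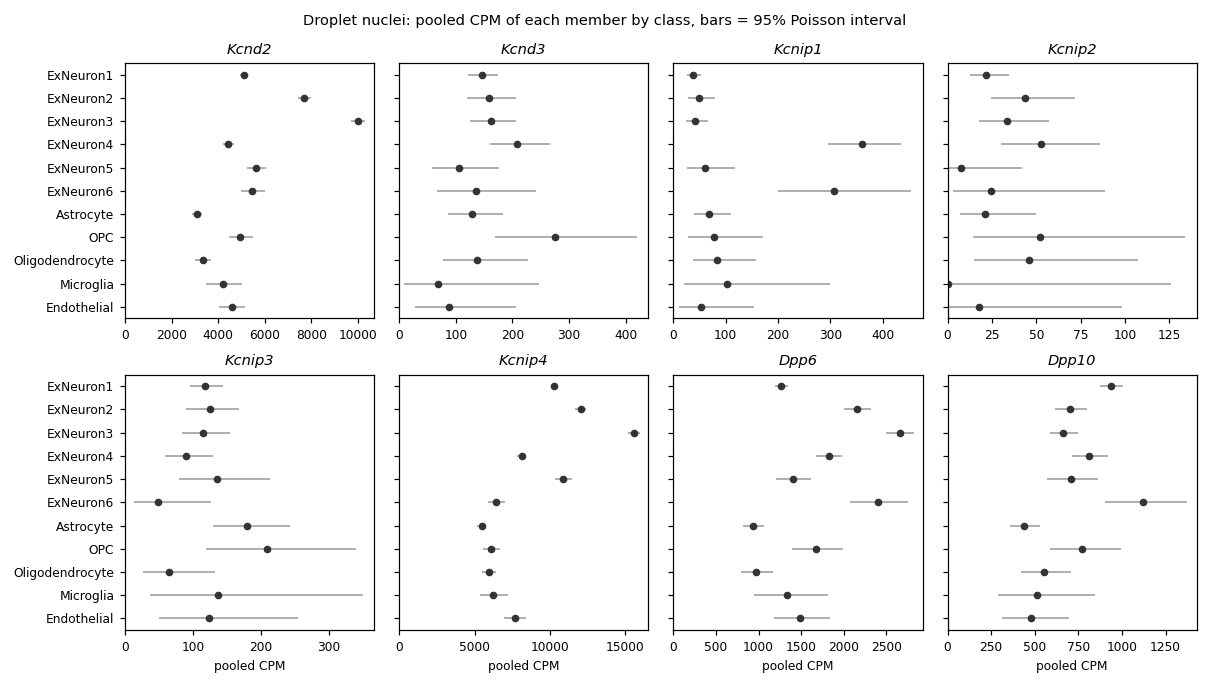
Pooled CPM (horizontal axes, linear) of each of the 8 members in the 11 droplet classes of at least 50 nuclei (vertical axes); points are class levels and lines exact 95% Poisson intervals. Kcnd2 and Kcnip4 peak in ExNeuron3 at 9996 and 15579 CPM, and Kcnip1 stands out in ExNeuron4 and ExNeuron6 at 360 and 308.

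Across the 11 classes, log2(CPM + 100) of Kcnd2 followed that of Kcnip4 with r = 0.87 and of Dpp6 with r = 0.85, but not that of the other members, with r from -0.21 for Kcnip1 to 0.41 for Dpp10. Kcnd3 followed Kcnip2 with r = 0.87, where Kcnip2 had few UMIs. The genes most like Kcnd2 among 1713 with at least 300 UMIs were Galnt13 (r = 0.95), Camk4 (0.93) and Zfp385b (0.93). Those most like Kcnip4 were Nedd4l, Rbfox1 and Rims1 (0.96, 0.96 and 0.95). Zfp385b also led for Dpp6 (0.92), followed by Epha3 and Grik2 (0.88 each), and Dlg2, Il1rapl1 and Hmgcll1 led for Dpp10 (0.92, 0.89 and 0.88). These are descriptions over classes of 1 library, not tests, and free RNA that the classes may share was not measured. Kcnip1 and Kcnip2 had too few UMIs for this comparison.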

How the data were processed

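Gene counts of nuclei pooled in wells, of single plate nuclei and of droplet nuclei were used as deposited; per the labels' protocols nuclei came from 50 µm scrolls, and the authors' tables hold whole-number counts of reads or UMIs. Per the submitters' processing notes the builds were mm10 and hg19; no source used here names the aligner or counting tool. The SCRB-seq table also lists 10653 human genes, which were left out of library sizes (1.61% to 31.8% of counts per well). Droplet classes are the authors' annotation; no doublet caller was run, and 0 barcodes appeared more than 1 time. Groups come from the tables' annotation. Wells were tested with edgeR 4.0.16 (R 4.3.3; TMM, filterByExpr, quasi-likelihood test), with p-values adjusted by Benjamini-Hochberg over all genes tested and called under 0.05. The script was tested on simulated counts. DESeq2 1.42.0, other scaling, no filter, single nuclei numbers, a nuclei-number block and left-out wells served as alternatives. Plate and droplet values are pooled CPM (counts per 1000000), thinned to 10000 counts or 250 UMIs for shares. Python 3.11.15, numpy 2.4.6, pandas 2.3.3, scipy 1.17.1 and matplotlib 3.10.9 were used. The members and lists were chosen with earlier results of these data known. Genes named are the 8 members, called genes of the fixed lists and the 3 genes most correlated with each member over droplet classes. Some genes of the lists are not reported here.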

Additional observations from a re-analysis of the deposited data

Results flagged for a closer look

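In 11 of 64 sets of 8 SCRB-seq wells, 1 well stood far from the rest. The nominal rate of the rule, for normally distributed values, is about 1 in 20, and CPM near 0 need not follow it. In mineral oil wells of 10 nuclei these were 975 CPM for Dpp10, 904 for Kcnd3, 48.6 for Kcnip2 and 76.4 for Kcnip3. In heated xylene wells of 10 nuclei they were 37.4 CPM for Kcnd3 and 897 for Kcnip3. Kcnip3 also stood apart in wells of 100 nuclei after heated xylene (462 CPM) and mineral oil (870). In room-temperature xylene wells of 10 nuclei they were 537 CPM for Kcnd3 and 158 for Kcnip3, and in frozen wells of 10 nuclei 324.5 for Kcnip1. For Kcnip2 and Kcnip3 in mineral oil wells of 10 nuclei every other well was at 0, so the count of a single well sets these 2 apart.

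The difference between wells of 10 and 100 nuclei itself differed between materials in 7 tests (edgeR quasi-likelihood interaction, adjusted over all genes). For Kcnip3 the difference of mineral oil from heated xylene was -4.78 on the log2 scale (adjusted p = 0.00748), and its difference from frozen wells was -4.78 (adjusted p = 0.00786). Against room-temperature xylene, mineral oil differed by -1.10 for Kcnip4 (adjusted p = 0.0113), -1.76 for Dpp6 (adjusted p = 0.00957) and -1.77 for Dpp10 (adjusted p = 0.0334), and these 3 calls were lost with DESeq2's size factors and with its Wald test. Heated xylene differed from room-temperature xylene by -1.19 for Kcnip4, a call lost without the low-count filter (adjusted p = 0.0513), and -3.23 for Kcnd3. In these tests 36.2% of genes were called for mineral oil against heated xylene, 37.9% against frozen wells and 39.2% against room-temperature xylene.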

How the results depend on the processing

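The rise of Kcnd2, Dpp6 and Kcnip1 held in 7 of 7 SCRB-seq alternatives, and that of Kcnd2 and Dpp6 in 16 of 16 SMART-Seq2 alternatives. Of 4 members called between FFPE and frozen SCRB-seq wells, the count became 7 with DESeq2 size factors and 7 with its Wald test. Without the mineral oil wells of 10 nuclei, an alternative chosen after seeing the data, Kcnip3 stayed called (-1.02, adjusted p = 0.0416, edgeR quasi-likelihood test). Between mineral oil and heated xylene (1 called) it was 0 with size factors, 2 without the filter, 2 in wells of 100 nuclei and 0 in wells of 10. Between heated and room-temperature xylene (0 called) it was 1 without the filter. Between mineral oil and room-temperature xylene (0 called) it was 1 without the filter, 1 by the Wald test, 1 in wells of 100 nuclei and 2 in wells of 10. For 10 against 100 nuclei after room-temperature xylene (0 called) it was 2 with size factors, 2 without the filter and 2 by the Wald test. With the nuclei number as a replicate block, 3, 1 and 2 members were called in the 3 pairs of methods; the number pairs no animals. Leaving out single SMART-Seq2 wells gave 2 to 2 calls between FFPE and frozen and 0 to 0 between methods.

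Between methods the sign turned under at least 1 alternative in 4 of 18 values of a member in SCRB-seq and 7 of 24 in SMART-Seq2. Against room-temperature xylene these include, in SCRB-seq, Dpp10 after heated xylene (0.16; -0.27 to 0.55) and Kcnd3 (0.18; -0.16 to 0.56) and Kcnd2 (0.03; -0.17 to 0.10) after mineral oil, and in SMART-Seq2 Kcnip2 after mineral oil (0.78; -0.96 to 1.29). They also include Kcnip4 between mineral oil and room-temperature xylene in SCRB-seq, at -0.10 without the filter and -0.36 in wells of 10 nuclei. Kcnip4 between FFPE and frozen SMART-Seq2 wells turned as well, at -0.035 to 0.25 over left-out wells. In plate nuclei against frozen, Dpp10 (1.37 on the log2 scale) became -0.14 without the nuclei absent from batch 2, -0.67 as a mean of single nuclei and -0.64 as a share with 2 counts. Kcnip1 (-0.98) became 0.26 and 0.25 by the last 2 measures, and Kcnip3 (-1.41) became 0.28 as a mean. Between the batches Kcnip3 (0.35) became -1.53 as a mean and -1.73 after thinning. The cause was not tested. Depth limited Kcnip2 most, with 81 droplet UMIs.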
